A study of Mus musculus with 2 samples.

Results

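Ribosomal protein paralogues are relatives of the standard ("canonical") ribosomal protein genes, and 5 of them were set against their canonical partners in mouse pro-B cells with and without the histone methyltransferase gene Setdb1. The pairs were Rpl22l1 with Rpl22, Rpl39l with Rpl39, Rps4l with Rps4x, Rps27l with Rps27, and Rpl7l1 with Rpl7. These 10 genes, of 36980 gene symbols in the deposited table, were taken by name. They were chosen because some of the paralogues had differed in this same comparison, so their differences are given as a description. RNA came from 1 Setdb1 Δ/Δ culture, whose column is headed as the deleted one, and 1 Setdb1 C/C culture, whose column is headed as wild type, and both are labelled bcl2-tg, for a bcl2 transgene. Pro-B cells, early B cell precursors sorted from bone marrow, had been cultured for 4 days with interleukin 7 at 5 ng/µl. The labels give no age, sex or strain, and name neither the driver of the transgene nor how the deletion was brought about. With 1 library per genotype there is no replicate check and no p-value, and intervals cover counting error alone.

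Each cytosolic ribosome carries a nearly fixed set of proteins, most of them made from a single active gene in mammals. A few ribosomal proteins have a second, diverged gene whose product can take the place of the canonical protein or act elsewhere in ribosome assembly. RPL22 is an RNA-binding protein of the large subunit, and in mice it represses the RNA of its own relative Rpl22l1. Loss of Rpl22 in mice is known for its effect on lymphocyte development. Rpl39l is known as a form of Rpl39 used in male germ cells, and Rps27l as a target of the transcription factor p53. Rpl7l1 resembles a yeast protein that helps to assemble the large subunit.

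The deleted gene itself measured 12.6 RPKM in Δ/Δ and 17.0 RPKM in C/C over the whole Setdb1 transcript. Its log2 ratio was -0.41, within the size rule given below. A level over the whole transcript does not show whether or how fully the gene was deleted. RPKM is the number of reads per kilobase of transcript, scaled to the size of the library, so levels of different genes can be set side by side. Depth, recovered from the values, was 193.25 M reads in Δ/Δ and 170.65 M reads in C/C. By the size rule given below, 6.28% of all measured genes were higher and 6.66% lower. Of the listed B lineage markers, 1 of 12 was higher and 4 were lower, with summed levels of 4268 RPKM in Δ/Δ and 5082 RPKM in C/C, and the lower ones numbered 2 after centring on the median gene. Cd79a, a chain of the pre-B cell receptor complex, measured 153 RPKM in Δ/Δ and 548 RPKM in C/C, and Igll1, a part of the surrogate light chain of B cell precursors, measured 766 RPKM in Δ/Δ and 785 RPKM in C/C. Among 10 myeloid markers 7 were measured, of which 5 were higher and 0 lower. Summed levels of the list were 246 RPKM in Δ/Δ and 31.6 RPKM in C/C. The largest level in Δ/Δ was that of Lyz2, with 120 RPKM in Δ/Δ and 9.01 RPKM in C/C. S100a8 and Fcer1g, at 0.463 and 0.869 RPKM in C/C, passed the filter of 1 RPKM, given below, through Δ/Δ alone. The granule genes Mpo and Elane, not measured, stood at 0.434 and 0.214 RPKM in Δ/Δ and were listed at 0 in C/C. All 4 measured erythroid markers of 8 were higher, with summed levels of 72.3 RPKM in Δ/Δ and 8.72 RPKM in C/C. The female-specific Xist measured 23.7 RPKM in Δ/Δ and 0.0940 RPKM in C/C, while the Y-linked Ddx3y measured 0.00900 RPKM in Δ/Δ and 10.2 RPKM in C/C. The part of these differences in the results below was not tested, and genotype and sex cannot be told apart. In bulk RNA, fewer cells of a type and less RNA per cell cannot be told apart either.

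A gene was called higher or lower when log2((Δ/Δ + 0.5)/(C/C + 0.5)) of its RPKM was at least 1 or at most -1. Of the 5 paralogues, 3 were higher by this rule, 0 were lower and 2 stayed within it, and all 5 canonical partners stayed within it. Among all 12556 measured genes (1 RPKM or more in at least 1 library) 6.28% were higher and 6.66% lower. Since the members were picked on this contrast, nothing is read from that comparison. The 3 higher paralogues all had a log2 ratio of 3 or more, a size reached by 0.573% of measured genes. Nothing is read from that share either, because of the same selection and because the cut of 3 lies just under the lowest of these ratios (3.05). All 10 members passed the filter of 1 RPKM, Rpl39l through the Δ/Δ library alone.

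**Figure D1:**
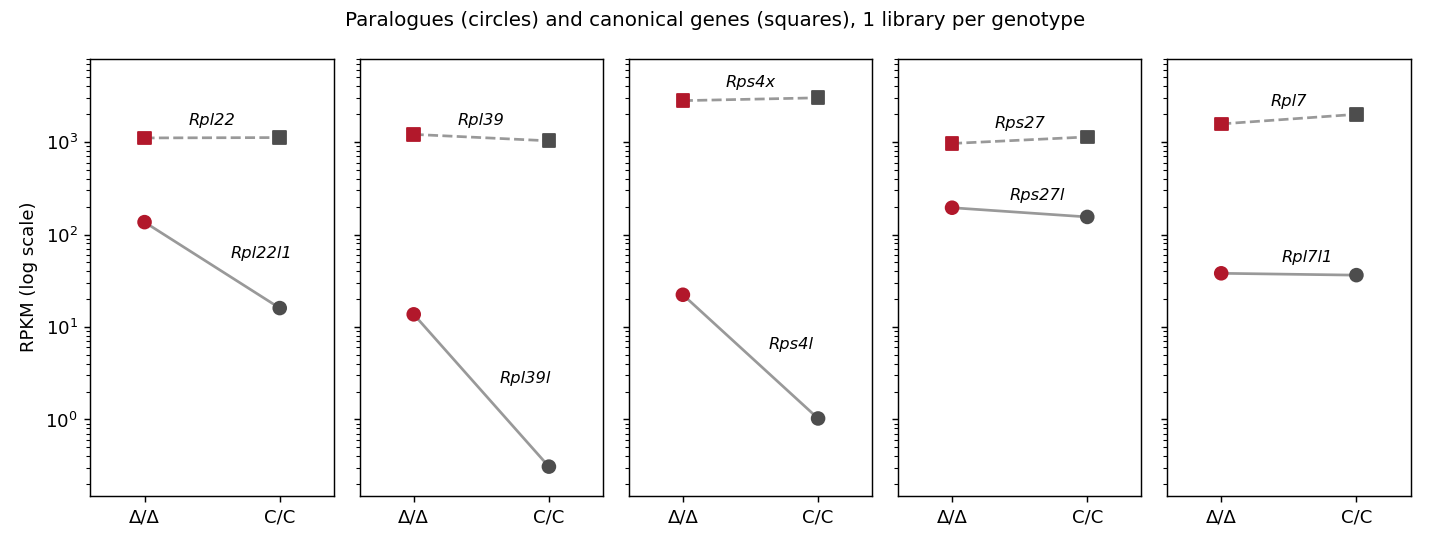
RPKM on a log axis of each paralogue (circle, solid line) and its canonical gene (square, dashed line) in the Δ/Δ library (red, left) and the C/C library (grey, right), 1 library each. The lines of Rpl22l1, Rpl39l and Rps4l are steep, with 136, 13.7 and 22.3 RPKM in Δ/Δ, while those of the canonical genes lie nearly flat.

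Rpl22l1, the relative of Rpl22, was the most abundant of the 3 raised paralogues. It measured 136 RPKM in Δ/Δ and 16.01 RPKM in C/C, from 14511 and 1508 reads. That is a ratio (Δ/Δ over C/C) of 8.50, for which counting error alone allows 7.88 to 9.17 at the 95% level, and the log2 ratio of 3.05 was the 63rd highest of the measured genes. Its canonical partner Rpl22 lay at nearly the same level in both libraries, 1107 RPKM in Δ/Δ and 1117 RPKM in C/C. The log2 ratio of Rpl22 was -0.01, and it was 0.08 after centring on the median gene, so its direction depended on the scaling. Rpl22l1 thus made up 10.9% of the summed RPKM of the pair in Δ/Δ (interval 10.7 to 11.2) and 1.41% in C/C (interval 1.31 to 1.52). Rpl22 was still 8.14 times as abundant as Rpl22l1 in Δ/Δ, against 69.8 times in C/C. These values depend on the transcript that stands for Rpl22, here a non-coding one of 369 bases. The share was 2.69% in Δ/Δ and 0.319% in C/C with RPKM summed over transcripts, and 34.6% in Δ/Δ and 5.63% in C/C with the longest transcript. The 7 listed Rpl22 transcripts had log2 ratios of -0.07 to -0.01.

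The Rpl22l1 gene (ENSMUSG00000039221) lies on GRCm38 chromosome 3, 28805436 to 28807415, plus strand, and has 1 listed transcript of 4 exons and 552 bases. The coding sequences of Rpl22l1 and Rpl22 (chromosome 4, 152325742 to 152334071, plus strand) matched at 73.4% of 354 aligned bases. No window of 101 bases, the read length, in Rpl22l1 came within 2 mismatches of an Rpl22 transcript, and the closest differed at 19 bases. Of the windows of Rpl22l1, 50.4% occurred exactly in a transcript of another gene, the transcribed pseudogene Gm15421 or the antisense RNA Gm33051 at the 3′ end of the gene. Gm15421 measured at most 2.56 RPKM in Δ/Δ and 1.64 RPKM in C/C over its transcripts. The labels name no strand-marking kit or strand-aware counting, so sense and antisense reads of the overlap with Gm33051 cannot be told apart.

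Promoter windows of RefSeq (build GRCm38.p6, from 250 bases before to 50 bases after the start of transcription) are shown for this pair because 1 member was called higher and the other was not. The windows are chr3:28805258-28805557 for Rpl22l1 and chr4:152325476-152325775 for Rpl22, both on the plus strand. Rpl22 has 2 entries in the table, of which the other, farther upstream, was not used. Capitals mark the TATA box letters TATAAA, searched on both strands, and the ETS core CCGGAA, likewise searched on both strands.
Rpl22l1: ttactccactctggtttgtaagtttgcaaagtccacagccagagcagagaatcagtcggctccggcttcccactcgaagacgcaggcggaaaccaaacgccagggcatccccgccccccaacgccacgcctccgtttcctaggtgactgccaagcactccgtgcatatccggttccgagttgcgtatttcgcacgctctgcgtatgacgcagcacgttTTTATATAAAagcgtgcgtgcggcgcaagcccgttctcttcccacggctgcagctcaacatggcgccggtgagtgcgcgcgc
Rpl22: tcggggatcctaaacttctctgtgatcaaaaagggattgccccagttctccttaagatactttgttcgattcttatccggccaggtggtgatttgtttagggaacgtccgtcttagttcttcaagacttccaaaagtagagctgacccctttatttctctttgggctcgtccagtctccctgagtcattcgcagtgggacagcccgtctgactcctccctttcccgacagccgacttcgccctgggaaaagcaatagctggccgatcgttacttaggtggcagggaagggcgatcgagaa
The Rpl22l1 window held 2 overlapping TATAAA matches, and the Rpl22 window held neither motif. The listed protein-coding transcripts of Rpl22 start at bases 152325853 and 152325867, past the end of the Rpl22 window at 152325775. The bases next to those starts were therefore not searched, and nothing is read from the contrast between these windows in motifs or CpG dinucleotides. Over all 32851 RefSeq windows 13.6% held TATAAA and 14.9% held CCGGAA. The Rpl22l1 window had 30 CpG dinucleotides and the Rpl22 window 15, against a median of 7 over all windows.

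Rpl39l, the form of Rpl39 known from male germ cells, was the least abundant of the 5 paralogues in both libraries. It measured 13.7 RPKM in Δ/Δ and 0.309 RPKM in C/C, from 1456 and 29 reads. The ratio was 44.3, with a wide counting interval of 27.2 to 84.4 because the C/C library held so few reads, and the log2 ratio of 4.13 ranked 12th of the measured genes. Its partner Rpl39, a small protein of the large subunit near the exit of the peptide tunnel, measured 1210 RPKM in Δ/Δ and 1030 RPKM in C/C. That is a ratio of 1.17 (interval 1.16 to 1.19), within the size rule. The 3 listed Rpl39 transcripts had log2 ratios of -0.03 to 0.23, so the direction depended on the transcript. Rpl39l supplied 1.12% of the pair's RPKM in Δ/Δ (interval 1.04 to 1.20) and 0.0300% in C/C (interval 0.0158 to 0.0486). In other words Rpl39 remained 88.3 times as abundant as its relative in Δ/Δ, against 3334 times in C/C.

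Both listed Rpl39l transcripts (ENSMUSG00000039209, chromosome 16, 10170226 to 10174911, plus strand, 3 exons each) were higher, with log2 ratios of 3.81 and 4.13. The longer one has 255 more exonic bases and ends farther downstream, and it collected 22 more reads than the shorter one in Δ/Δ and 0 more in C/C. Nearly all reads of the gene therefore lay on sequence that both transcripts share.

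The coding sequences of Rpl39l and Rpl39 (chromosome X, 37082520 to 37085402, minus strand) have the same length of 156 bases and are printed to show how a read can be told to belong to Rpl39l although the genes are so alike. Capitals mark the 23 bases that differ.
Rpl39l: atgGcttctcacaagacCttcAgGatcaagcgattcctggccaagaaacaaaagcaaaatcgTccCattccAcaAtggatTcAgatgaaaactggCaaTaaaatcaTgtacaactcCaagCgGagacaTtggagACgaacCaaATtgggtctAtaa
Rpl39: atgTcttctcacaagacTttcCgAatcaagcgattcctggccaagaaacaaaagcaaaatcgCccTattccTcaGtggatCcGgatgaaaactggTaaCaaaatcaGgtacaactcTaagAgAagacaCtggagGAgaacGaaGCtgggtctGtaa
The differences are unevenly spread and leave 85.3% identity. Few lie in the first part, which holds a long stretch without any, and most lie after that stretch. The closest 101-base window of the whole Rpl39l transcript differed from Rpl39 at 11 bases, and none of its windows occurred exactly in a transcript of another gene.

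Promoter windows of this pair, from the same RefSeq table, are chr16:10169978-10170277 on the plus strand for Rpl39l and chrX:37085173-37085472 on the minus strand for Rpl39. Capitals again mark TATAAA and CCGGAA on either strand.
Rpl39l: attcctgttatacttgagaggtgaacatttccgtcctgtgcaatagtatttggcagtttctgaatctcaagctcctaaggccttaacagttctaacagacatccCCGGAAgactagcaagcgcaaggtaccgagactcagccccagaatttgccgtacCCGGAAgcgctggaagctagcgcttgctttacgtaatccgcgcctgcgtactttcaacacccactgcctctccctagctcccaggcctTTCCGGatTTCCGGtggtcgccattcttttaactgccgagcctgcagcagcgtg
Rpl39: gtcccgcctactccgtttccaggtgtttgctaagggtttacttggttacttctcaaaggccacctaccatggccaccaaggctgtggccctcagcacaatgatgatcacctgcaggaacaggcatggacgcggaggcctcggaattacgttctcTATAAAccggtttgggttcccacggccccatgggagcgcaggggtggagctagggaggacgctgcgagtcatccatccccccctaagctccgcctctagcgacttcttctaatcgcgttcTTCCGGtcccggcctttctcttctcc
Here the Rpl39l window held 4 CCGGAA matches and no TATAAA, and the Rpl39 window held 1 of each. The listed protein-coding transcript of Rpl39 starts at base 37085402, upstream of the start from which its window was drawn. The TATAAA match lies downstream of that base, so nothing is read from the contrast between these windows in motifs. Each window had 17 CpG dinucleotides. The RefSeq table matched 8 of the 10 members, without Rps4l and Rpl7. In these 8 windows, 1 per gene, 4 other motifs had 0 matches on either strand. These were the cAMP response element TGACGT (7.51% of all windows), the STAT site TTCNNNGAA (8.30%), the interferon-stimulated response element (3.44%), and the ER stress element (0.119%).

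Rps4l, a relative of the small-subunit protein gene Rps4x, carries the annotation of a processed pseudogene that is transcribed. It measured 22.3 RPKM in Δ/Δ and 1.03 RPKM in C/C, from 4065 and 165 reads. The ratio was 21.8 (interval 17.5 to 27.6), and the log2 ratio of 3.90 ranked 19th. Rps4x, on the X chromosome, was among the most abundant canonical genes, with 2802 RPKM in Δ/Δ and 3007 RPKM in C/C, a ratio of 0.932 (interval 0.927 to 0.937). Rps4l accounted for 0.790% of the pair in Δ/Δ (interval 0.756 to 0.825) and 0.0341% in C/C (interval 0.0269 to 0.0421). Summed over transcripts, its share was 0.349% in Δ/Δ and 0.0151% in C/C. The 3 listed Rps4x transcripts had log2 ratios of -0.12 to -0.04, and that of the gene was -0.01 after centring.

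Rps4l (ENSMUSG00000063171) is a single exon of 943 bases on chromosome 6, 148354656 to 148355598, plus strand, within the span of Tmtc1 on the minus strand. Tmtc1 measured 0.233 RPKM in Δ/Δ and 0.381 RPKM in C/C. The Rps4l transcript matched the Rps4x coding sequence (chromosome X, 102184941 to 102189394, minus strand) at 80.1% of 789 aligned bases. The 101-base stretch where the transcripts are most alike is printed because reads from there are the hardest to assign. It starts at base 736 of Rps4l and base 776 of Rps4x, and capitals mark the 11 bases that differ.
Rps4l: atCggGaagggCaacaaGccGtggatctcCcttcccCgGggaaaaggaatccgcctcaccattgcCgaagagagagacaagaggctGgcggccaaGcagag
Rps4x: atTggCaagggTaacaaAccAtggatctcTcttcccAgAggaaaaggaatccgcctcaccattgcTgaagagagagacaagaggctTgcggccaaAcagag
No window of Rps4l came closer to Rps4x than this, and 1.54% of its windows occurred exactly in another gene, Rps4l-ps, which was listed at 0 RPKM in both libraries. Of the Rps4x windows, 34.1% occurred exactly in processed pseudogenes.

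The remaining 2 paralogues stayed within the size rule. Rps27l measured 195 RPKM in Δ/Δ and 155 RPKM in C/C, a ratio of 1.26 (interval 1.22 to 1.30). It was the most abundant paralogue of the 5 in both libraries. Its 6 listed transcripts (chromosome 9, 66946086 to 66949516, plus strand) had log2 ratios of 0.27 to 0.39. Rps27, the small-subunit protein gene from which it is named, measured 965 RPKM in Δ/Δ and 1135 RPKM in C/C. The share of Rps27l in the pair was 16.8% in Δ/Δ and 12.0% in C/C, taken from a transcript annotated for nonsense-mediated decay. Summed over transcripts it was 48.2% in Δ/Δ and 38.8% in C/C. The level of Rps27 (chromosome 3, 90212671 to 90213651, minus strand) is uncertain, because 98.4% of its windows occurred exactly in Rps27rt, an intact copy on another chromosome that measured 1220 RPKM in Δ/Δ and 1823 RPKM in C/C. Rps27l shared no such window with any gene.

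Rpl7l1, whose yeast relative helps to assemble the large subunit, stood at 38.1 RPKM in Δ/Δ and 36.4 RPKM in C/C, a ratio of 1.05 (interval 1.02 to 1.08). Rpl7 was at 1569 RPKM in Δ/Δ and 1993 RPKM in C/C, a ratio of 0.787 (interval 0.781 to 0.793). Rpl7l1 made up 2.37% of the pair in Δ/Δ and 1.79% in C/C. That share was 0.531% in Δ/Δ and 0.439% in C/C with transcripts summed, and 3.74% in Δ/Δ and 3.09% in C/C with the longest transcript. Rpl7l1 lies on chromosome 17, 46773907 to 46782656, and Rpl7 on chromosome 1, 16101295 to 16104662, both on the minus strand. At 63.4% of aligned coding bases this pair was the least alike of the 5.

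Rpl7 was the canonical gene whose transcripts differed most among themselves. Its 6 listed transcripts had log2 ratios of -0.38 to 0.31, and the 0.31 belonged to a short non-coding transcript of 421 bases at the 3′ end of the gene. It measured 1049 RPKM in Δ/Δ and 843 RPKM in C/C, while the other 5 transcripts had log2 ratios of -0.38 to -0.15. Rpl7 windows also occur in processed pseudogenes (30.9% exactly in another gene for the transcript that stands for it).

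**Figure D2:**
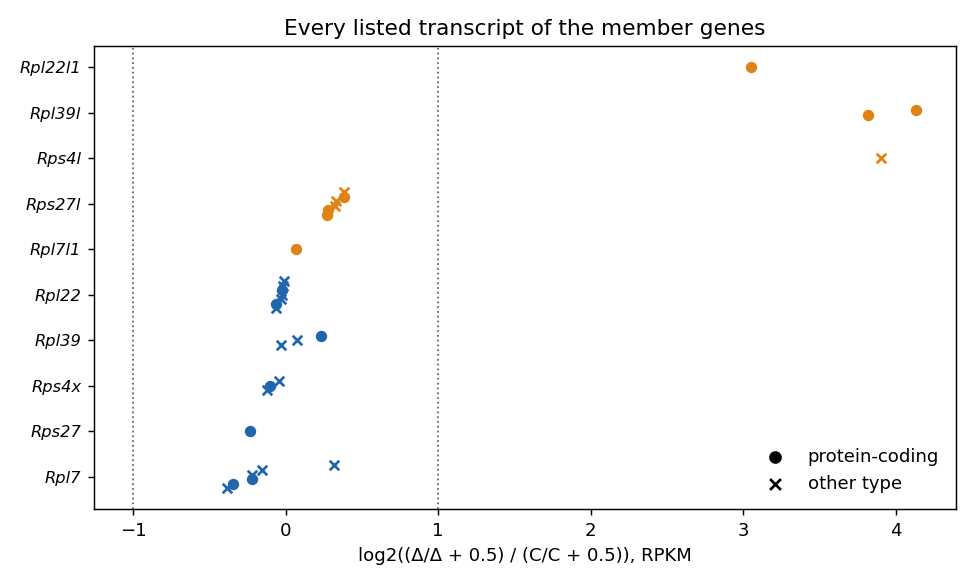
Log2 ratio of Δ/Δ over C/C (0.5 RPKM added to each) on the horizontal axis for every listed transcript of the 10 members, circles for protein-coding transcripts and crosses for other types, paralogues in orange and canonical genes in blue. Dotted lines mark the size rule at -1 and 1, and the 4 transcripts of Rpl22l1, Rpl39l and Rps4l are the points past it.

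Of the 31 listed transcripts, 11 belonged to paralogues and 20 to canonical genes. All 4 transcripts of the 3 raised paralogues passed the size rule, and 0 of the 20 canonical transcripts did. These counts largely repeat the calls of the genes. Rpl22l1 and Rps4l have 1 listed transcript each, and transcripts of the same gene share reads. The share of all listed transcripts past the rule was not computed, so nothing is read from these counts.

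Each paralogue was then set against its partner by the difference of the 2 log2 ratios (paralogue minus canonical). This difference was 3.06 for Rpl22l1, 3.90 for Rpl39l and 4.0 for Rps4l. It was 0.56 for Rps27l and 0.41 for Rpl7l1, below the size of 1 that served as the limit. The value for Rps27l rests on Rps27, whose level is uncertain because of its near identity to Rps27rt. The value for Rpl7l1 was 0.28 both with transcripts summed and with the longest transcript. For Rps27l and Rpl7l1 the paralogue's ratio lay above 1 and the partner's below 1. With 1 library per genotype the sign of the small differences has no replicate check.

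**Figure D3:**
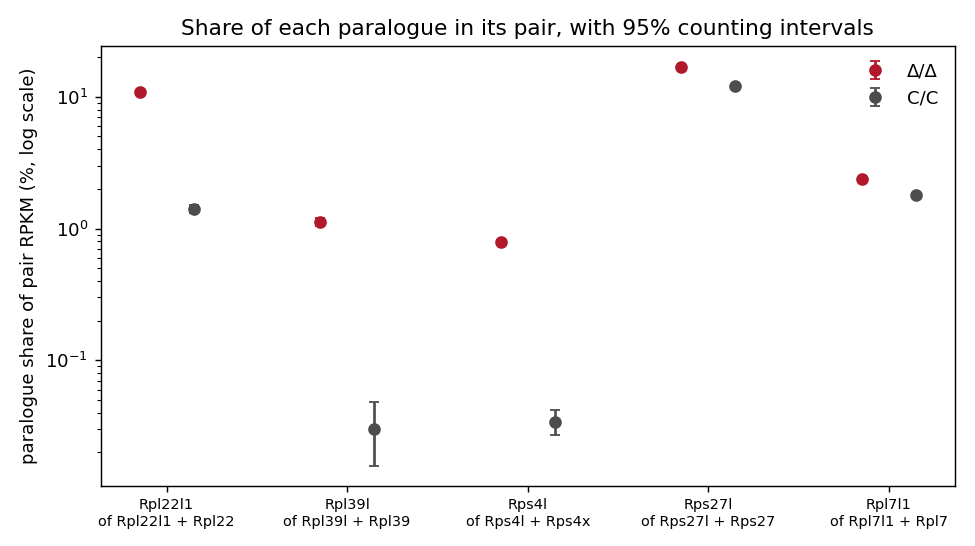
Share of each paralogue in the summed RPKM of its pair (percent, log axis) in the Δ/Δ library (red, left of each pair of points) and the C/C library (grey, right), with exact 95% counting intervals, many smaller than the points. The Rpl39l share is 1.12% in Δ/Δ and 0.0300% in C/C, whereas the Rpl7l1 share is 2.37% in Δ/Δ and 1.79% in C/C.

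In absolute terms the raised paralogues remained a small part of ribosomal protein RNA. Rpl22l1, Rpl39l and Rps4l together measured 172 RPKM in Δ/Δ and 17.3 RPKM in C/C. That equals 0.108% of the summed RPKM of 80 canonical cytosolic ribosomal protein genes in Δ/Δ, and 0.00939% in C/C. The least abundant canonical gene stood at 516 RPKM in Δ/Δ and 344 RPKM in C/C, above each of the 5 paralogues in either library. In order of level, the paralogues ran Rps27l, Rpl22l1, Rpl7l1, Rps4l and Rpl39l in Δ/Δ, and Rps27l, Rpl7l1, Rpl22l1, Rps4l and Rpl39l in C/C, so Rpl22l1 and Rpl7l1 changed places.

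The list of canonical cytosolic ribosomal protein genes held 80 genes with the 5 partners, all measured, of which 0 were higher and 1 was lower by the size rule, with a median log2 ratio of -0.22 (-0.13 after centring). The median over all measured genes was -0.09, with 6.28% of them higher and 6.66% lower. Fau, which encodes a fusion of a ubiquitin-like protein and the small-subunit protein RPS30, was the lower one at 1175 RPKM in Δ/Δ and 2488 RPKM in C/C, and after centring 0 genes of the list passed the rule. The next largest differences belonged to Rpl13a, with 2471 RPKM in Δ/Δ and 3786 RPKM in C/C, and Rps2, with 1907 RPKM in Δ/Δ and 1248 RPKM in C/C. By log2 ratio of the transcript that stands for each gene, Rpl39 ranked 4th, Rpl22 18th, Rps4x 25th, Rps27 42nd and Rpl7 60th of the 80.

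**Figure D4:**
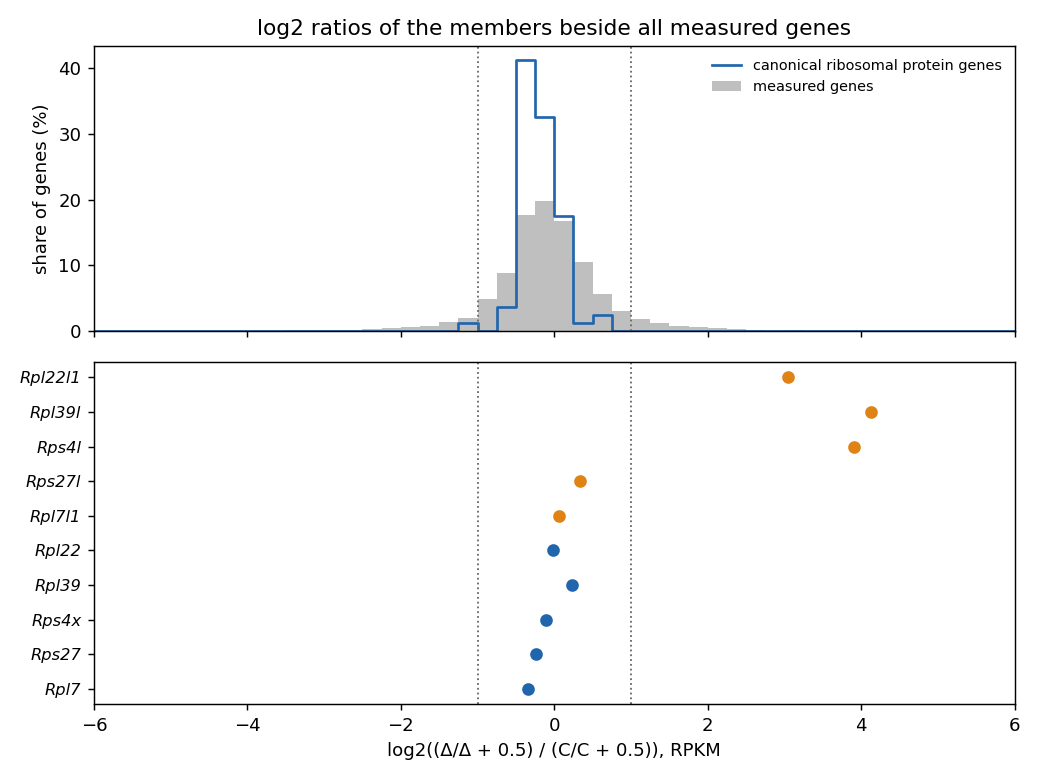
Top, share of genes (percent) by log2 ratio of Δ/Δ over C/C for all 12556 measured genes (grey bars) and the 80 canonical ribosomal protein genes (blue line), with the axis drawn from -6 to 6. Bottom, the log2 ratio of each member on the same axis, paralogues in orange and canonical partners in blue; the orange points of Rpl22l1 (3.05), Rps4l (3.90) and Rpl39l (4.13) lie far outside the blue line, and Rps27l (0.33) and Rpl7l1 (0.07) inside it.

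Of 6 further paralogues on the list, 4 were measured, of which 0 were higher and 1 was lower, against 6.28% and 6.66% of all measured genes. Rpl36al, a relative of Rpl36a, measured 414 RPKM in Δ/Δ and 333 RPKM in C/C. Rpl3l, the muscle form of Rpl3, measured 1.63 RPKM in Δ/Δ and 0.749 RPKM in C/C, a log2 ratio of 0.77. The lower one was the pseudogene Rps3a2, with 9.62 RPKM in Δ/Δ and 25.1 RPKM in C/C. Rps3a3 stood at 0.355 RPKM in Δ/Δ and 0.803 RPKM in C/C, and Rpl10l, a testis form of Rpl10, was listed at 0 RPKM in both libraries.

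Rpl39l was also read beside male germ line markers. Of 12 such markers 2 were measured, of which 0 were higher and 1 was lower, against 6.28% and 6.66% of all measured genes. The summed level of the list was 25.2 RPKM in Δ/Δ and 14.0 RPKM in C/C. Most of that sum was the cohesin subunit gene Stag3, with 24.6 RPKM in Δ/Δ and 12.4 RPKM in C/C, which passed the size rule only after centring. Prm1, a sperm protamine gene, was the lower one, with 0.298 RPKM in Δ/Δ and 1.44 RPKM in C/C. These levels came from 27 reads in Δ/Δ and 115 in C/C, and Prm1 passed the filter of 1 RPKM through C/C alone. Sycp1, Tnp1, Mael and Hormad1, genes of meiosis and sperm formation, were listed at 0 RPKM in both libraries, and the germ cell marker Ddx4 was at 0.0280 RPKM in Δ/Δ and 0.0110 RPKM in C/C.

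Rps27l was read beside other p53 targets, from a list that does not hold it. Of 23 measured targets 0 were higher and 6 were lower, against 6.28% and 6.66% of all measured genes. Over all measured genes the median log2 ratio was -0.09, and over the targets it was -0.38. The largest differences were those of Bbc3, which encodes the death-promoting protein PUMA (10.7 RPKM in Δ/Δ and 45.3 RPKM in C/C), of Zmat3 (0.788 RPKM in Δ/Δ and 3.05 RPKM in C/C), and of Phlda3 (5.03 RPKM in Δ/Δ and 13.7 RPKM in C/C). Rps27l had a log2 ratio of 0.33, and Trp53 itself measured 90.3 RPKM in Δ/Δ and 103 RPKM in C/C.

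Rpl7l1 was set beside 42 genes of ribosome assembly, all measured. Of them 3 were higher and 0 lower, against 6.28% and 6.66% of all measured genes. The list's median log2 ratio was 0.35, and 36 of the 42 had a log2 ratio above 0, as had 5303 of the 12556 measured genes. Brix1, a large-subunit assembly factor, measured 31.0 RPKM in Δ/Δ and 13.3 RPKM in C/C. Nop58, a core protein of box C/D small nucleolar particles, measured 84.7 RPKM in Δ/Δ and 39.2 RPKM in C/C, and Gnl3, which encodes nucleostemin, 71.6 RPKM in Δ/Δ and 33.5 RPKM in C/C. After centring, Npm1, the abundant nucleolar protein gene, also passed the rule, with 1611 RPKM in Δ/Δ and 812 RPKM in C/C. Rpl7l1 (log2 ratio 0.07) lay below the list's median.

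The genomic surroundings of the raised paralogues were examined for measured genes with a proper name. Within 100 kb of Rpl22l1 there was 1, the translation factor gene Eif5a2 at 6.59 kb, with 1.73 RPKM in Δ/Δ and 1.18 RPKM in C/C. Within the same distance of Rpl39l and of Rps4l there were 0. In a wider window of 300 kb, set after the values were seen, each of the 3 genes had 2 measured neighbours, and 0 of these 6 were called in either direction. Among all measured genes 6.28% were higher and 6.66% lower, so 6 genes are too few to show a difference from those shares. Nubp1 and Tvp23a, the neighbours of Rpl39l, had log2 ratios of -0.43 and -0.44. Ergic2 and Far2, those of Rps4l, had 0.44 and 0.30.

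**Figure D5:**
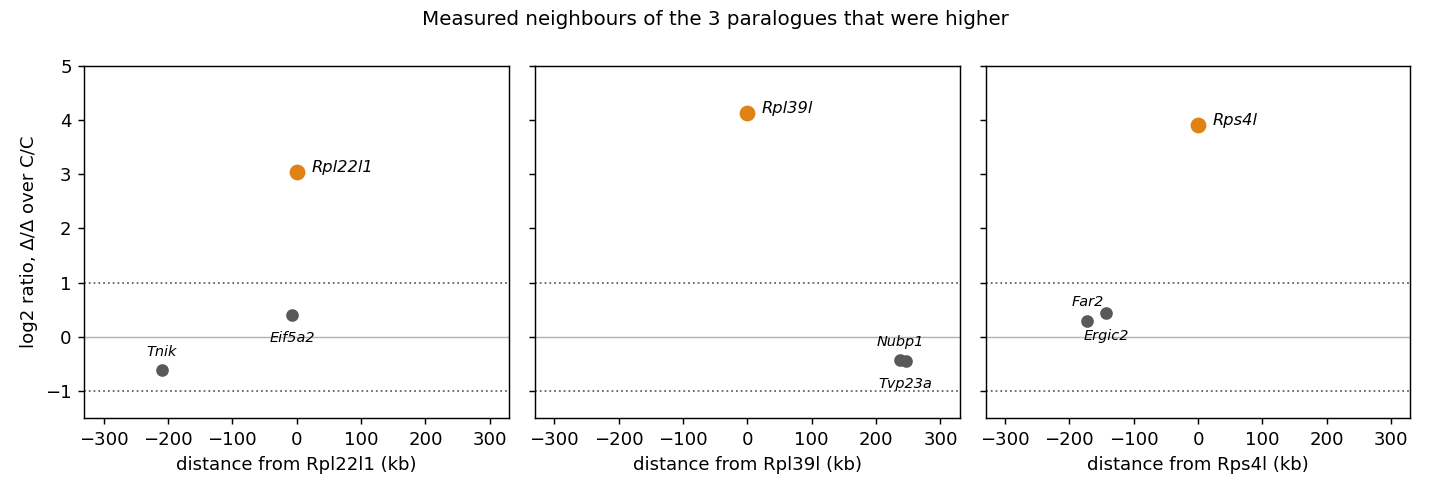
Log2 ratio of Δ/Δ over C/C (vertical axis) against distance in kb (horizontal axis; negative is upstream of the paralogue) for measured genes within 300 kb of Rpl22l1, Rpl39l and Rps4l, grey for neighbours and orange for the paralogue. The neighbours lie between -0.62 and 0.44, inside the dotted lines of the size rule, and the paralogues at 3.05, 4.13 and 3.90.

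Measured protein-coding genes nearest to each raised paralogue in log2(RPKM + 0.5) over the 2 libraries were listed by distance. For Rpl22l1 these were the mitochondrial gene mt-Atp8 (distance 0.40) and the actin-binding protein gene Coro2a (0.59). For Rpl39l they were the lipoprotein lipase gene Lpl (0.35) and the macrophage metalloprotease gene Mmp12 (0.38), and for Rps4l the growth factor gene Nrg4 (0.41) and the surface antigen gene Ly6a (0.41). With 2 libraries, a pattern holds 2 values, and many unlike genes can share it.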

How the data were processed

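RNA from 2 cultured pro-B cell samples, 1 per genotype, was freed of ribosomal RNA and sequenced as 101 bp paired-end reads from TruSeq RNA libraries, per the labels' protocols, which name no strand-marking step. The authors deposited 1 RPKM value per Ensembl transcript and library, rounded to 3 decimals. The submitters' processing notes name TopHat2 2.0.9, bedtools, mm9 and mm10. The build of this table, its annotation release and how shared reads were treated: not given in the sources used here. Columns Del and Wt were read as Δ/Δ and C/C.

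Transcripts were matched to GENCODE M21 (GRCm38) by identifier, which succeeded for 89571 of 93615 (95.7%). Each gene was represented by its transcript of highest mean RPKM. Depth was recovered as the factor that makes RPKM times length whole: 95.8% of low values in Δ/Δ and 96.5% in C/C lay within 0.1 of a whole read. On simulated tables the depth was off by at most 0.0002%, and the size rule called 49 of 50 genes raised 2.5-fold, 41 of 50 genes lowered to 0.4-fold and 6 of 12045 unchanged genes (22710 genes simulated). The simulated libraries held counting noise alone, without variation between cultures. They therefore give no rate of false calls for the real libraries. More transcripts had 2 reads than 1 (727 against 522 in Δ/Δ, 641 against 588 in C/C), so 2 reads were taken as 1 fragment. Intervals are exact 95% intervals for counting error. The unit is RPKM, and with 1 library per group no count model or other test was used. Named genes are the members, neighbours within 100 kb, up to 3 genes per list by absolute log2 ratio, markers, further paralogues and nearest patterns. Npm1, Trp53, Tmtc1, Nubp1, Tvp23a, Ergic2 and Far2 were named after their values were seen. Members and lists were chosen with earlier results of these data known. Tools were Python 3.11.15, pandas 2.3.3, SciPy 1.17.1 and Biopython 1.88. Alternatives were other pseudocounts, filters, scalings and transcript choices.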

Additional observations from a re-analysis of the deposited data

How the results depend on the processing

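The log2 ratios of all 10 members and the 5 pair differences kept their side of the size rule under pseudocounts of 0.1 and 1, both scalings and the 3 other transcript choices. The log2 ratio of Rpl39l ran from 3.49 to 5.08, that of Rps4l from 3.52 to 4.32 and that of Rpl22l1 from 3.01 to 3.14. Pair shares depended on which transcript stood for a gene. With RPKM summed over all transcripts, which counts shared reads repeatedly, the share in Δ/Δ and in C/C was 2.69% and 0.319% for Rpl22l1, 0.349% and 0.0151% for Rps4l, 48.2% and 38.8% for Rps27l, 0.531% and 0.439% for Rpl7l1, and 0.830% in Δ/Δ for Rpl39l. With the longest transcript it was 34.6% and 5.63% for Rpl22l1, 14.4% and 10.6% for Rps27l, 3.74% and 3.09% for Rpl7l1, and 0.779% in Δ/Δ for Rpl39l. With the best protein-coding transcript, a choice added after seeing the data, it was 11.7% in Δ/Δ for Rpl22l1 and 16.2% in Δ/Δ for Rps27l. In each of these settings every paralogue's share was higher in Δ/Δ than in C/C. At a filter of 5 RPKM, with fewer genes tested, 452 measured genes were higher and 510 lower, against 788 and 836 at 1 RPKM. The cause of other movements was not tested. No paired analysis was possible because each genotype had 1 library. Depth limits Rpl39l most, with 29 reads in C/C.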

Other observations

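Near Rps27l, which stayed within the size rule, the small GTPase gene Rab8b at 26.5 kb was higher, with 16.2 RPKM in Δ/Δ and 7.70 RPKM in C/C, while Lactb at 5.93 kb measured 4.84 RPKM in Δ/Δ and 5.53 RPKM in C/C. The 8 measured neighbours of Rpl7l1 within 100 kb had log2 ratios of -0.56 to -0.08. Of these, 0 were called, against 6.28% higher and 6.66% lower among all measured genes.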
